A study of Mus musculus with 4 samples.

Results

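Pseudogene promoters were taken as the promoter entries with a methylation level in all 4 libraries whose gene has a GENCODE vM21 type ending in "pseudogene". Genes with symbols starting Olfr, Vmn or Zfp, 39 of these entries, were left out. This left 1628 of the 20152 promoters with a level in all 4 libraries. Of them, 1379 carry a Gm symbol with a number, 151 carry a -ps symbol, and 98 carry another symbol. No measured level was used to choose them.

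A pseudogene is a copy or remnant of a gene that has lost the ability to make the original protein. Processed pseudogenes are messenger RNAs that were copied back into DNA and inserted elsewhere. They arrived without the promoter of the parent gene, and the sequence in front of the inserted copy is that of the insertion site. Whether the annotated start lies at the edge of the inserted copy was not checked. Unprocessed pseudogenes are duplicated genes that decayed in place and may keep the upstream sequence of the parent, and unitary pseudogenes are genes without an intact copy left in the genome. Methyl groups at CpG sites are copied onto the new DNA strand after replication by DNMT1, and most CpGs outside CpG islands are methylated in mammalian cells.

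The libraries were made by reduced representation bisulfite sequencing (RRBS) from C3H10T1/2 cells, a mesenchymal line derived from C3H mouse embryos. All cells were transfected for 48 h, either with a non-targeting siRNA (NC) or with an siRNA against DNMT1 (siDNMT1), and were then left uninduced or induced towards osteoblasts (OB) for 3 days with 50 µM ascorbic acid, 10 mM β-glycerophosphate and dexamethasone. The groups are NC uninduced, siDNMT1 uninduced, NC OB and siDNMT1 OB, with 1 library each. With 1 library per group no difference could be tested, no SD exists, and promoters were not treated as replicates. The difference between the NC OB and NC uninduced libraries, which share an siRNA, is given throughout as a yardstick. However, it also holds any effect of induction and of any longer time in culture. DNMT1 depletion was not checked here, because no expression value was used.

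A level is the fraction of methylated calls over a promoter, from 0 to 1, as deposited. The study's methods place a promoter in the 2 kb upstream of the gene start. No read counts accompany the levels, so the depth behind each value is unknown and no counting interval could be given. Some levels of members with the largest differences are simple fractions, such as 0.3, 0.667 and 1.00 at Gm14800 and 0.5 at Gm9244. Such fractions can come from few calls, which was not tested.

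To show what lies in front of these genes, the 300 bases before the annotated start are given for 7 genes, read from GRCm38 on the strand of the gene, with CpGs in capitals. The first 3 are members whose level was lower by at least 0.1 with siDNMT1 both before and after induction, the next pair are members that were higher in both, and the last pair is the pseudogene with the widest gap to its parent gene and that parent. Gm14800 (chrX:97162927-97163226, minus strand) has no CpG in this stretch, so any CpGs behind its level lie further upstream. Gm8355 (chr10:14747303-14747602, minus) has 7 and Gm4863 (chr3:140118036-140118335, minus) has 3. Gm20392 (chr17:36216413-36216712, minus) has 3 and Gm7049 (chr13:62812776-62813075, plus) has 27. Gng5-ps (chr16:22294727-22295026, plus), a processed copy of the G protein gamma subunit gene Gng5, has 7 CpGs, against 46 in front of Gng5 itself (chr3:146499507-146499806, plus).
Gm14800: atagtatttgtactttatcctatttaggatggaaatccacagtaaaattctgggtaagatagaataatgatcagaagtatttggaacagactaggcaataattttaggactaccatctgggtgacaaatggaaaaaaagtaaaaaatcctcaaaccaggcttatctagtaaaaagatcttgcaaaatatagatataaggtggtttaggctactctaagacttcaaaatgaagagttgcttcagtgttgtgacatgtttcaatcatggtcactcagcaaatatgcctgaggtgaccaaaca
Gm8355: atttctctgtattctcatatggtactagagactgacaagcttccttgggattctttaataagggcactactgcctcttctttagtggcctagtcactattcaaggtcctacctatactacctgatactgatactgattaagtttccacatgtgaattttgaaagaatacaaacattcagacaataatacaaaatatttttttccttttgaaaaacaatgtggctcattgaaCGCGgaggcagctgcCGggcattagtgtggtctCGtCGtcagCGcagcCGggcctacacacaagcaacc
Gm4863: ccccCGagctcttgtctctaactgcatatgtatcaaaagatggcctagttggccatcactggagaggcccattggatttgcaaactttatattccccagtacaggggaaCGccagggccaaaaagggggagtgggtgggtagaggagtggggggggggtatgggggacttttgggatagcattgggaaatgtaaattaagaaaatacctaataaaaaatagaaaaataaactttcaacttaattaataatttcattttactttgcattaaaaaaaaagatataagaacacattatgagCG
Gm20392: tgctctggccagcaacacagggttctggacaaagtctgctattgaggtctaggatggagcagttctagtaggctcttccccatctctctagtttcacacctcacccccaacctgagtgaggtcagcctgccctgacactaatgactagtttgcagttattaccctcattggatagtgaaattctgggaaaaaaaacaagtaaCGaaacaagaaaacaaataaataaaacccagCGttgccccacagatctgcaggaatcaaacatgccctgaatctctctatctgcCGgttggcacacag
Gm7049: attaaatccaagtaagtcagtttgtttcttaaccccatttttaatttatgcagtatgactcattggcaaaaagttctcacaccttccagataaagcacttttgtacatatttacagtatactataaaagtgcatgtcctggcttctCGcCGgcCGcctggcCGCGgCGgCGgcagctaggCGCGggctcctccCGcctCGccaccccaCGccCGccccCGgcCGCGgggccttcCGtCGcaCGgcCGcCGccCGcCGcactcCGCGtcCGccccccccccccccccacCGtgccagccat
Gng5-ps: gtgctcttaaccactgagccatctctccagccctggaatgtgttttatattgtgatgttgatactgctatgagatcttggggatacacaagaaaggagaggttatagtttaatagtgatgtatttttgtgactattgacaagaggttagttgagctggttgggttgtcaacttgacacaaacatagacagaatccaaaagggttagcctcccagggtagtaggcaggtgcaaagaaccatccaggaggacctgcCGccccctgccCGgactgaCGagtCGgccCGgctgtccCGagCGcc
Gng5: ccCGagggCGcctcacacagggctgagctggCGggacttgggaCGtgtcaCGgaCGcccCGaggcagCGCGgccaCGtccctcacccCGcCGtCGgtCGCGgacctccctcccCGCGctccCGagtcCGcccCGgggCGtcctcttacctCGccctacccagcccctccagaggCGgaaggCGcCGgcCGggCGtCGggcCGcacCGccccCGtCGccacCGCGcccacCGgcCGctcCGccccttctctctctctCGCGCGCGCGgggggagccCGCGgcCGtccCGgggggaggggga

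The windows of the members were poor in CpGs. Over the 2 kb before the GENCODE start, the median member window held 24 CpGs in the reference (lowest 5, quartiles 17 and 34, highest 174), against 39 for protein-coding promoters and 38 for all promoters. The median GC content was 44.8% for members and 47.8% for protein-coding promoters, and the ratio of observed to expected CpGs was 0.245 against 0.356. A deposited CpG island entry overlapped 14.6% of member windows and 64.6% of protein-coding windows. Repeats covered more of the member windows: 24.8% of their CpGs lay in masked repeat, against 10.6% in protein-coding windows. Pseudogene promoters thus lay mostly outside islands, in sequence with few CpGs.

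Most annotated pseudogenes had no level at all. Of 13000 pseudogenes annotated with a whole 2 kb window on a chromosome and outside the symbols left out, 1822 were listed in at least 1 library and 1628 in all 4, or 12.5%. A single library listed between 1696 (siDNMT1 OB) and 1752 (siDNMT1 uninduced) of them. The listed windows held more CpGs than the 11178 unlisted ones (a median of 24 against 12) and more of the motif CCGG, the cut site of MspI, the enzyme usual in RRBS (3 against 1). CCGG reads the same on both strands. It was present in 98.6% of the members' windows, in 50.7% of the unlisted pseudogene windows and in 95.8% of the windows of all promoters with a level. The extraction protocol describes sonication and names no enzyme. What follows therefore covers the CpG-richer part of the mouse pseudogenes: 13.4% of the annotated processed type and 5.23% of the unprocessed type, but 41.7% of the 60 genes typed only as "pseudogene".

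Pseudogene promoters were methylated well above the promoters of protein-coding genes in every library. Their median levels were 0.552 (NC uninduced), 0.548 (siDNMT1 uninduced), 0.563 (NC OB) and 0.541 (siDNMT1 OB). The corresponding medians of the 13597 protein-coding promoters were 0.110, 0.108, 0.0981 and 0.0913, and those of the 1307 lincRNA promoters were 0.410, 0.407, 0.408 and 0.389. Over all promoters the medians were 0.191, 0.188, 0.174 and 0.164. The gap between members and coding promoters was therefore far wider than any difference between libraries. The quartiles of the members in the NC uninduced library were 0.366 and 0.727, so intermediate levels were common.

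The bar chart of level classes shows the same contrast in the mean level over the 4 libraries. Only 123 members (7.56%) had a mean level below 0.1, the class that held 49.7% of protein-coding and 42.0% of all promoters. Between 0.1 and 0.5 lay 563 members (34.6%), close to the 33.9% of coding promoters. Between 0.5 and 0.75 lay 618 members (38.0%, against 13.2% of coding promoters), and at 0.75 or above 324 (19.9%, against 3.19%). LincRNA promoters stood between, with 24.6% below 0.1 and 7.80% at 0.75 or above.

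**Figure D1:**
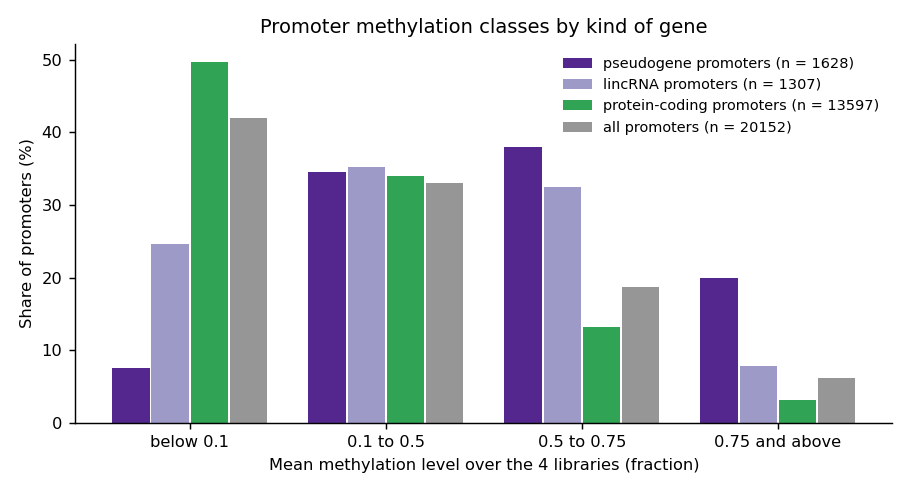
Share of promoters (%) in 4 classes of mean methylation level (fraction, mean of the 4 libraries), for pseudogene, lincRNA, protein-coding and all promoters. Of the pseudogene promoters 7.56% fell below 0.1, against 49.7% of the protein-coding promoters, and 19.9% reached 0.75, against 3.19%.

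The gap to coding promoters was present at every CpG count. In windows with 10 to 19 CpGs the 489 members had a median of 0.498 in the NC uninduced library and the 1300 coding promoters one of 0.259. In windows with 20 to 39 CpGs the medians were 0.599 (792 members) and 0.181 (5359 coding promoters). At 40 CpGs or more they were 0.541 (271 members) and 0.0577 (6775 coding promoters). In coding promoters the median thus became lower with more CpGs, whereas the members were highest in the middle class. The spread of the 271 CpG-rich members was wide, with quartiles of 0.0948 and 0.75. The rank correlation of mean level and CpG count over the 1628 members was 0.109, a description only, since all members share the same 4 libraries.

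The type of pseudogene went with the level, as the plot of medians by type shows. The 1333 processed pseudogenes, the retrotransposed copies, had the highest median of the larger types, 0.575 in the NC uninduced library with quartiles of 0.409 and 0.738. The 117 unprocessed pseudogenes had a median of 0.433. Pseudogenes annotated as transcribed stood lower than the untranscribed ones of the same origin, at 0.508 for 82 transcribed processed and 0.352 for 40 transcribed unprocessed genes. The share of members with a mean level below 0.1 was 5.18% for processed and 6.84% for unprocessed pseudogenes, and 23.2% and 27.5% for their transcribed counterparts. The 25 genes typed only as "pseudogene" stood lowest, with a median of 0.0909 and 48.0% below 0.1. The quartile ranges of neighbouring types overlapped, and the order of the 5 types was the same in the 4 libraries.

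**Figure D2:**
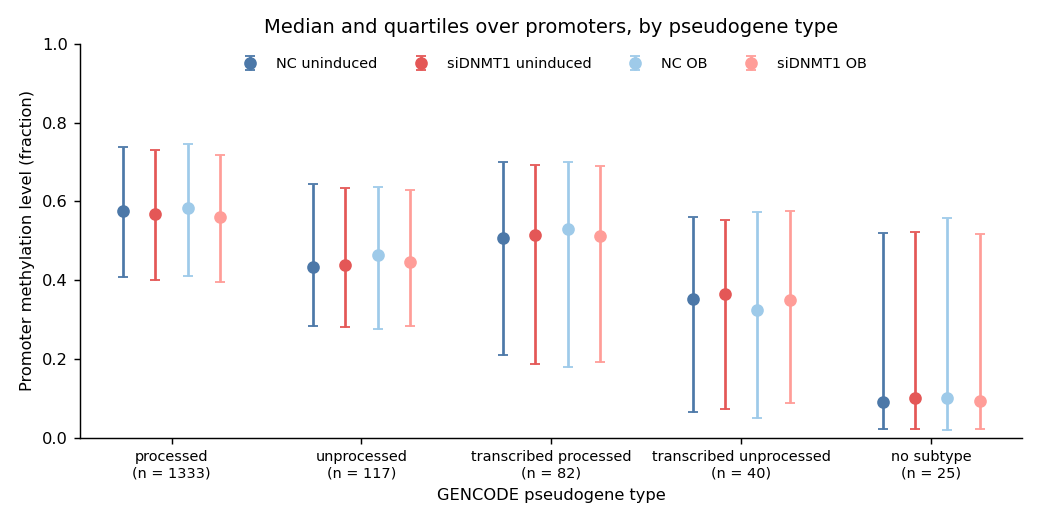
Promoter methylation level (fraction) by GENCODE pseudogene type in each of the 4 libraries, with the median over promoters as a point and the quartiles as bars. Processed pseudogenes had medians of 0.562 to 0.583, and genes without a subtype medians of 0.0909 to 0.101.

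Genes in the types with under 10 members are given singly. Polymorphic pseudogenes are intact in some mouse strains and broken in others, and 2 of the 8 had a mean level below 0.1. Whether these genes are intact in the C3H cells was not checked. Oas1b, an antiviral gene of the oligoadenylate synthetase family, had levels of 0.0335, 0.0362, 0.0289 and 0.0277 in the NC uninduced, siDNMT1 uninduced, NC OB and siDNMT1 OB libraries. Atp10d, a phospholipid flippase gene, had 0.0195, 0.0144, 0.0156 and 0.0310 in the same order. Hyi, which encodes a hydroxypyruvate isomerase, had 0.139, 0.145, 0.115 and 0.110. At the other end stood Cxcl11, a chemokine gene, with 0.780, 0.741, 0.773 and 0.735, and Cdk3-ps, a cyclin-dependent kinase gene, with 0.780, 0.793, 0.796 and 0.754. Art2a-ps, an ADP-ribosyltransferase gene of T cells, lay between, at 0.552 to 0.618. The secreted phospholipase gene Pla2g2a lay at 0.185 to 0.237, and H2-Bl, of the major histocompatibility complex, at 0.140 to 0.189. These 8 promoters each stayed within a range of 0.0661 over the 4 libraries. The window of Oas1b overlaps that of another gene, and that of Hyi an island entry. Cxcl11 starts inside Art3 and Pla2g2a inside Pla2g5. The other polymorphic genes had none of these.

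The unitary pseudogenes spanned the whole scale as well. Mlnr-ps, the remnant of the motilin receptor gene, had levels of 0.583, 0.569, 0.507 and 0.507 in the order above, and lay in a window with an island entry. The other 4 untranscribed unitary genes, Gm38941, LOC102637012, Gm47873 and Gm49299, lay between 0.422 and 0.823. Among the 9 transcribed unitary genes, Thap6, of a family of zinc finger proteins, had the lowest levels, 0.0209 to 0.0265. Gm4275 had the highest, 0.642 to 0.655. The windows of both overlap that of another gene. The start of Thap6 lies inside Rchy1 and that of Gm4275 inside Fgfr2. The keratin gene Krt74 lay at 0.395 to 0.433 and the doublecortin domain gene Dcdc5 at 0.272 to 0.293. The remaining transcribed unitary genes, 4930451G09Rik, 4930519F16Rik, 1700086L19Rik, Abhd11os and 2810039B14Rik, lay between 0.128 and 0.434.

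Broken segments of the antigen receptor genes, which a mesenchymal cell does not use, were not uniformly methylated. Igkv12-42, a segment of the kappa light chain locus, had 0.0460, 0.0621, 0.0588 and 0.0742, and Igkv4-60 lay at 0.165 to 0.216. Igkv1-136 lay at 0.553 to 0.577 and Igkv14-126-1 at 0.444 to 0.519. Of the heavy chain segments, Ighv1-45 had 0.378 in the NC uninduced library and 0.257 to 0.277 in the others, and Ighv15-1 lay at 0.157 to 0.252. The T cell receptor alpha segments Trav13-3 and Trav4d-2 lay at 0.208 to 0.358 and the beta joining segment Trbj2-6 at 0.603 to 0.630.

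The level of a pseudogene promoter went with where its window lay. For 974 members the window overlapped no island entry and no window of a gene that is not a pseudogene. Their start also lay in no protein-coding gene, and their median was 0.532 in the NC uninduced library. Whether the window itself ran into a coding gene was not checked. The 301 members with their start inside a protein-coding gene, without an island or another window, had the highest median, 0.643. Those on the opposite strand of the host (200) stood at 0.660 and those on the same strand (101) at 0.615. The 115 members overlapping the window of another gene, without an island, stood at 0.569. The 238 members with an island entry had a median of 0.444 and the widest quartiles, 0.0565 and 0.748. Of these 238, 72 (30.3%) had a mean level below 0.1 and 58 (24.4%) one of 0.75 or above, so that both ends of the scale were common among pseudogenes at islands.

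The 123 members with a mean level below 0.1 often lay at an island. An island entry overlapped 72 of them (58.5%, against 11% of the other members). Of those without an island entry, 11 overlapped the window of another gene. A further 11, without either, lay inside a coding gene, and the remaining 29 had none of these. Members at an island or another window were not counted again when inside a coding gene. Over the 123 the median CpG count was 48, against 24 for the other members. Several of the genes typed only as "pseudogene" were of this kind: B330016D10Rik had levels of 0.0209 to 0.0262 with 102 CpGs in its window, D130007C19Rik 0.0189 to 0.0208 with 109, A930035D04Rik 0.0142 to 0.0157 with 122 and 1700018M17Rik 0.0115 to 0.0153 with 114. Others of that type were highly methylated, such as AC114990.1 inside Map3k13 (0.875 to 0.891) and 1700024J04Rik (0.738 to 0.784), which has an island entry and 67 CpGs. Of the low genes named here, A930035D04Rik also lies inside Cul1 and 1700018M17Rik inside Ptbp3.

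The extremes of the mean level were named by rank. The highest were Cox20b (0.963 to 1.00), Gm10709 (0.981 to 0.993), Gm5864 (0.977 to 0.993), Gm48973 (0.932 to 1.00) and Gm14036 (0.963 to 0.991). All 5 are processed pseudogenes with 10 to 22 CpGs in the window, and Cox20b lies inside Mrpl48, a gene for a mitochondrial ribosomal protein, and Gm14036 inside Plcb1, a phospholipase C gene. The lowest were Gm19093, listed at 0 in all 4 libraries with 5 CpGs in its window, Gm44118 (0 to 0.0119), Gm43922 (0 to 0.0130), Gm10110 (0 to 0.0192) and Gm5540 (0.00489 to 0.0127). Gm5540 is the one of these with an island, with 88 CpGs in its window. Over all members, 17 were at 0 in at least 1 library and 10 were at 1 in at least 1 library.

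The part of a -ps symbol before -ps was taken as the parent gene. A pseudogene promoter was set beside the promoter of that gene. For 96 of the 151 -ps members the parent is a protein-coding gene with a level in all 4 libraries, and these pairs involve 68 parents. The median mean level was 0.639 at the pseudogenes and 0.0200 at the parents, and the median gap within pairs was 0.561. The pseudogene was the more methylated member of 90 pairs. An island entry overlapped 80 of the parent windows in these pairs and 21 of the pseudogene windows. Most parents thus had an island and a level near 0, and most copies had no island and a higher level.

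Ribosomal protein genes, which have given rise to many processed copies, made up 42 of the pairs. Their median gap was 0.569 and the pseudogene stood higher in 41. The exception was Rpl21-ps5, with 0.135, 0.166, 0.130 and 0.111 in the NC uninduced, siDNMT1 uninduced, NC OB and siDNMT1 OB libraries, against 0.270, 0.151, 0.409 and 0.385 for Rpl21. All 6 copies of Hmgb1, a chromatin protein of the high mobility group, stood higher than Hmgb1, with a median gap of 0.764. Without the ribosomal pairs the median gap over the other 54 was 0.557.

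The 5 widest gaps were all at processed copies. Gng5-ps had levels of 0.944, 0.833, 0.905 and 1.00 and Gng5 of 0.0117, 0.0110, 0.0133 and 0.0112, in the order above, with 20 CpGs in the 2 kb window of the copy and 90 in that of the parent. The sequences given above show that difference in the last 300 bases. Next came Bod1-ps (0.898 to 0.925, parent Bod1 0.0140 to 0.0178), a copy of a gene for chromosome biorientation at mitosis. Ybx1-ps2 lay at 0.906 to 0.92, and its parent Ybx1, a Y-box nucleic acid binding protein, at 0.0148 to 0.0190. Mrto4-ps2 (0.889 to 0.92) has 82 CpGs and an island entry in its window, more CpGs than the 55 of its parent Mrto4 (0.0131 to 0.0179), a ribosome assembly factor. Hmgb1-ps5 (0.887 to 0.927) lies inside Ctss, the gene of a lysosomal protease, and Hmgb1 lay at 0.0141 to 0.0161. A window rich in CpGs was therefore not always an unmethylated one.

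The 5 smallest gaps were at 2 transcribed unprocessed and 3 processed copies. Gpr137b-ps, a transcribed unprocessed copy of a lysosomal membrane protein gene, had 0.0472, 0.0353, 0.0275 and 0.0304, and Gpr137b 0.0385, 0.0404, 0.0376 and 0.0340. Pisd-ps2, an unprocessed and transcribed copy of the gene for mitochondrial phosphatidylserine decarboxylase, lay at 0.0120 to 0.0157 and Pisd at 0.0205 to 0.0280. Both copies have an island entry in the window, with 67 and 70 CpGs. Eif2s3x-ps1, although a processed copy, also lies at an island with 66 CpGs and had 0.0387 to 0.0425, against 0.0106 to 0.0156 for Eif2s3x, a translation initiation factor subunit. Topbp1-ps1 (0.125 to 0.202) and its parent Topbp1, of the DNA damage checkpoint (0.123 to 0.285), were both low to intermediate. Rpl3-ps1 (0.684 to 0.745) and Rpl3 (0.608 to 0.660) were both high. The largest gap in the other direction was at Sms-ps, named after seeing its value, with 0.0704 to 0.0963 against 0.309 to 0.333 for Sms, the spermine synthase gene on the X chromosome.

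**Figure D3:**
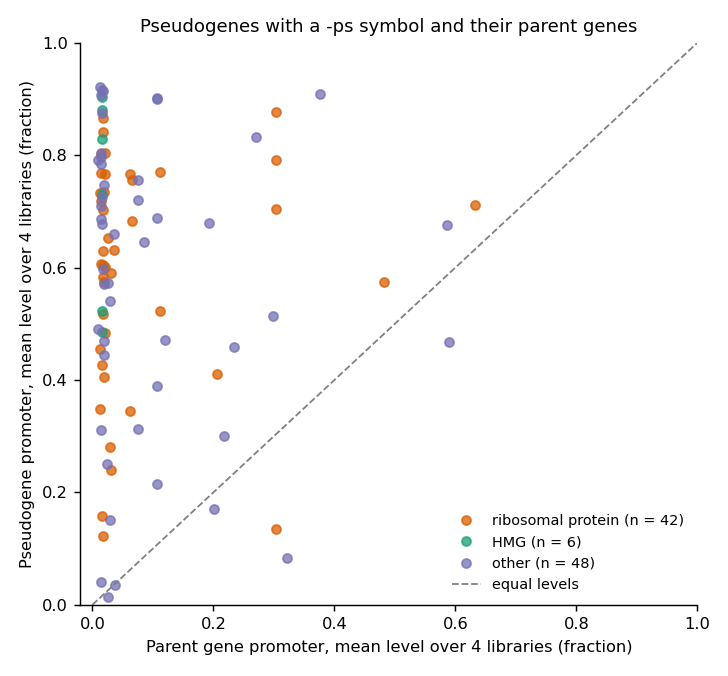
Mean methylation level over the 4 libraries (fraction) of 96 pseudogene promoters with a -ps symbol, against that of the parent gene promoter, by parent family; the dashed line marks equal levels. In 90 pairs the point lies above the line, and most parents stand near 0, with a median of 0.0200.

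With siDNMT1 the levels of the members shifted by a small amount. In uninduced cells the median difference of siDNMT1 minus NC over the 1628 members was -0.00511 (quartiles -0.0214 and 0.00820), and the level was lower with siDNMT1 at 984 members and higher at 640. After OB induction it was -0.0145 (quartiles -0.0352 and 0.00235), with 1149 lower and 469 higher. Over all promoters the medians were -0.000713 and -0.00371. Before induction 60.4% of members and 53.2% of all promoters were lower with siDNMT1, and after it 70.6% and 64.0%. The yardstick, NC OB minus NC uninduced, had a median of 0.00216 over the members, with 747 lower and 870 higher. It thus had the opposite sign to its median over all promoters, -0.00320, and to that over coding promoters, -0.00361. In the NC OB library 45.9% of members and 63.4% of all promoters stood lower. The sign of this median was not shared by all groups of members. It was 0.00288 for processed and 0.00225 for unprocessed pseudogenes, but -0.00322 for transcribed processed ones and -0.00259 for members at an island.

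Differences of at least 0.1 were rare. Before induction 38 members stood lower by 0.1 or more with siDNMT1 (2.33%), where 0.814% of all promoters were, and 21 were higher (1.29%, against 0.67%). After induction 53 were lower (3.26%, against 1.41% of all promoters) and 30 higher (1.84%, against 0.794%). Between the NC libraries 44 were lower in the OB library (2.70%, against 1.41%) and 25 higher (1.54%, against 0.764%). Between the siDNMT1 libraries 56 were lower after induction (3.44%, against 2.34%) and 42 higher (2.58%, against 1.04%). In every contrast, the yardstick included, the share of members past 0.1 was above that of all promoters in both directions. These shares were not matched for level: 7.56% of members and 42.0% of all promoters had a mean level below 0.1. In the class of 0.5 to 0.75 after induction, 3.56% of members and 2.89% of all promoters were lower with siDNMT1. There 1.29% and 1.30% were higher. Before induction 2.43% and 1.27% were lower, and 1.78% and 0.873% higher. The excess thus did not hold in every class. With each library centred on its own median promoter level, the lower and higher counts of members were 36 and 22 with siDNMT1 before induction. After it they were 45 and 35. Between the NC libraries they were 35 and 36, and between the siDNMT1 libraries 46 and 65. Among the members the balance thus turned in both contrasts of OB with uninduced libraries. The centred counts were not made over all promoters. At 1456 of the 1628 members no contrast reached 0.1.

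The differences went with the level itself, so members were set beside coding promoters of the same class of mean level. Within the class of 0.5 to 0.75, the median OB difference of siDNMT1 minus NC was -0.0197 for the 618 members and -0.0202 for 1793 coding promoters, and in uninduced cells -0.00575 and -0.00609. At 0.75 or above the medians were -0.0151 and -0.0199 after induction, and -0.0116 and -0.00823 before it. Below 0.1 they lay between -0.000187 and 0.000783 in both sets. From 0.1 to 0.5 they were -0.0138 for the 563 members and -0.00980 for 4613 coding promoters after induction, and -0.00260 and -0.00356 before it. For the yardstick the classes were not alike. From 0.1 to 0.5 the NC OB minus NC uninduced median was 0.00570 for the members, -0.0158 for the coding promoters and -0.0105 for 460 lincRNA promoters. From 0.5 to 0.75 it was 0.00525 for the members and -0.00460 for the coding promoters. Below 0.1 it was -0.00177 for the members and -0.00197 for the coding promoters, and at 0.75 or above -8.71e-05 and -0.00104. The gap in the middle classes was not tested, for want of replicates.

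**Figure D4:**
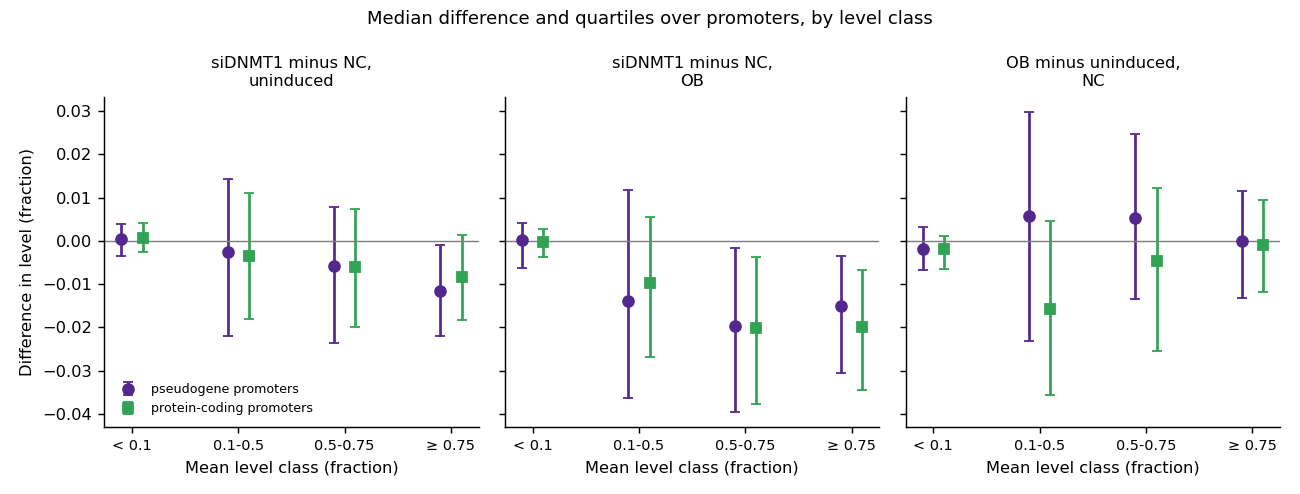
Median difference in methylation level (fraction) over promoters, with quartiles as bars, by class of mean level for pseudogene and protein-coding promoters, in siDNMT1 minus NC before and after OB induction and in NC OB minus NC uninduced. With siDNMT1 after induction the class of 0.5 to 0.75 stood at -0.0197 and -0.0202, while between the NC libraries the class of 0.1 to 0.5 stood at 0.00570 for pseudogenes and -0.0158 for coding genes.

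The members lower by at least 0.1 were more frequent among windows with few CpGs. Of the 489 members with 10 to 19 CpGs, 24 (4.91%) were past 0.1 and lower with siDNMT1 before induction, against 11 of 792 (1.39%) with 20 to 39 and 1 of 271 (0.369%) with 40 or more. With under 10 CpGs it was 2 of 76 (2.63%), against 2.08% of all promoters. In the 3 classes from 10 CpGs upwards all promoters had the same order, at 2.33%, 0.821% and 0.383%. After induction the shares of members in these classes were 4.50%, 3.28% and 0.738%, against 2.66%, 1.84% and 0.628% of all promoters. The yardstick had the same order too, with 4.70%, 1.77% and 1.48% of members lower, against 2.95%, 1.83% and 0.617% of all promoters. The members higher with siDNMT1 before induction did not follow this order, at 1.43%, 1.52% and 0.369%. All promoters did, at 1.37%, 0.796% and 0.372%. The 122 members past 0.1 in either siDNMT1 contrast had a median of 19.5 CpGs, against 25 for the rest. The number of calls behind each level was not given and its part in these differences was not tested.

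The median shift with siDNMT1 had the same sign in each of the larger types and places. The median of siDNMT1 minus NC in uninduced cells was -0.00541 for processed, -0.00364 for unprocessed and -0.00318 for transcribed processed pseudogenes, and after induction -0.0161, -0.0134 and -0.0105. Members at an island had medians of -0.00143 and -0.00319. Those inside a coding gene, without an island or another window, had the lowest, -0.0114 and -0.0187. The latter group also had the highest levels. On the X chromosome, 110 members had medians of -0.00768 and -0.020, against -0.00489 and -0.0143 on the autosomes. The quartiles of all these groups overlapped. The -ps members with a parent had medians of -0.00595 and -0.0180, and their 68 parents -0.000219 and -0.000226.

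By at least 0.1, 6 members were lower in both siDNMT1 contrasts (0.369%, against 0.134% of all promoters) and 4 were higher in both (0.246%, against 0.109%). These are 27 and 22 of the 20152 promoters, members included. A further 10 members were past 0.1 in opposite directions in these contrasts (0.614%, against 0.248%). Gm14800, a processed pseudogene on chrX:97161655-97162926, went from 0.769 in the NC to 0.3 in the siDNMT1 library before induction, and from 1.00 to 0.667 after it. siDNMT1 minus NC was -0.469 before and -0.333 after induction, but the NC libraries also differed by 0.231 here, and the window holds 9 CpGs. Gm8355 (chr10:14745362-14747302), which lies inside Nmbr, the neuromedin B receptor gene, had 0.559, 0.353, 0.719 and 0.538 in the NC uninduced, siDNMT1 uninduced, NC OB and siDNMT1 OB libraries. At both genes the siDNMT1 level after induction stood above the siDNMT1 level before it. Gm4863 (chr3:140116655-140118035) had 0.375, 0.214, 0.250 and 0.0769 in the same order.

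The other 3 that were lower in both had smaller differences between the NC libraries. Gm6486, an unprocessed pseudogene (chr5:3070743-3072522), had 0.231, 0.0455, 0.222 and 0.0833. Its NC levels were within 0.00855 of each other and both siDNMT1 levels lay below them. Gm27228 (chr7:106038167-106039204) had 0.453, 0.294, 0.388 and 0.250. Gm7091 (chrX:140821938-140822523), with 27 CpGs, had 0.765, 0.639, 0.820 and 0.719. At Gm6486, Gm27228 and Gm7091 both siDNMT1 libraries stood below both NC libraries, as they did at Gm4863, Gm8355 and Gm14800. These genes were chosen for being lower by at least 0.1 in both contrasts. Where the NC libraries differ by less than 0.1, this order follows from that choice.

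Of the 4 members higher in both, Gm20392 is an unprocessed pseudogene at chr17:36213417-36216412 with 10 CpGs in its window. It had 0.338, 0.506, 0.192 and 0.480 in the same order of libraries. Gm47681 had 0.438, 0.583, 0.5 and 1.00. Gm7049 (chr13:62813076-62814787), with 41 CpGs and an island entry, had 0.672, 0.775, 0.670 and 0.835, so that its NC levels were nearly equal and both siDNMT1 levels stood above them. Gm48691, a transcribed processed pseudogene on the same chromosome (chr13:62402493-62417043), had 0.514, 0.629, 0.657 and 0.760, and its siDNMT1 uninduced level lay below its NC OB level. At the other 3 both siDNMT1 libraries stood above both NC libraries. These genes too were chosen by their differences, so this order lends no separate support.

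**Figure D5:**
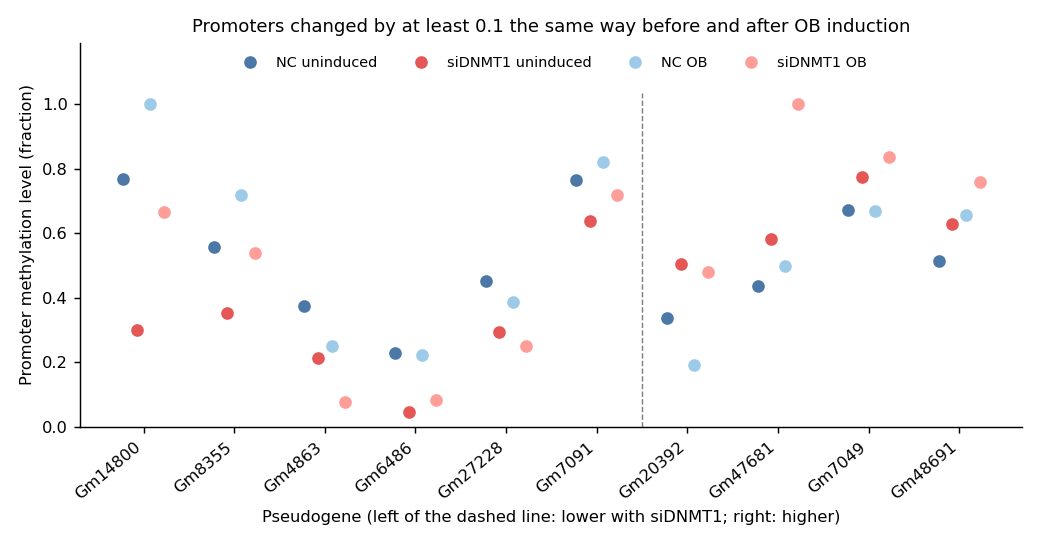
Promoter methylation level (fraction) in the 4 libraries, 1 point per library, for the 6 pseudogenes lower and the 4 higher by at least 0.1 with siDNMT1 both before and after OB induction. Gm14800 ranged from 0.3 to 1.00, and Gm7049 from 0.670 to 0.835.

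The largest single differences seldom recurred. In uninduced cells the most negative difference was at Gm9244, an unprocessed pseudogene inside Gm5592, from 1.00 in the NC to 0.5 in the siDNMT1 library. After induction it was higher with siDNMT1 (0.714 against 0.5). Gm5434 went from 0.814 to 0.5 before induction and from 0.625 to 0.95 after it. Gm9133 was past 0.1 in uninduced cells and not after induction, with 0.288, 0, 0.238 and 0.225 in the order NC uninduced, siDNMT1 uninduced, NC OB and siDNMT1 OB, and Gm16042 had 0.875, 0.636, 0.821 and 0.787. Of the largest positive differences before induction, Gm28631, inside the cytoskeletal linker gene Dst, had 0.558, 1.00, 0.494 and 0.5, and Gm14892 had 0.331, 0.6, 0.356 and 0.307. Gm16419 had 0.545, 0.8, 0.589 and 0.536 and Gm14989 had 0.125, 0.333, 0.163 and 0.148. At Gm9133, Gm28631, Gm14892, Gm16419 and Gm14989 the siDNMT1 uninduced library alone stood apart and the other 3 lay together.

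After induction the most negative difference was at Gm2926, inside the guanylate cyclase gene Gucy2d, from 0.394 to 0, with 0.552 and 0.509 in the uninduced NC and siDNMT1 libraries. Gm47892 had 0.462, 0.429, 0.533 and 0.2 in the order above, and Gm48979, inside the biotin ligase gene Hlcs, had 0.426, 0.407, 0.517 and 0.194. At these 3 the siDNMT1 OB library alone was low. Gm7754 was the reverse, with 0.0213, 0.0972, 0.0800 and 0.339. Over all members the median range of the 4 levels was 0.0432, against 0.0275 for all promoters, and the range was under 0.05 at 976 members and at least 0.1 at 190 (11.7%, against 6.57% of all promoters).

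The exon medians of the pseudogenes were near their promoter medians. A deposited exon level in all 4 libraries was held by 637 members, with a median of 0.634 in the NC uninduced library, where the promoters of the same genes had 0.617. The exon stood higher than the promoter in 332 and lower in 303, by mean level. Across these 637 members, which share the same 4 libraries, the rank correlation of exon and promoter mean level was 0.432. For 12654 coding genes the exon median was 0.290 and the promoter median 0.101, so the step from promoter to body seen in coding genes was small in the pseudogenes. With siDNMT1 the exon medians of the members were -0.00512 before and -0.0157 after induction, near those of the promoters.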

How the data were processed

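Bisulfite libraries of 4 groups of C3H10T1/2 cells, 1 per group, were compared. Reads were processed by the authors with CASAVA, Trimmomatic 0.36 and Bismark 0.16.3 on mm10, as the methods and processing notes state. The deposited values are methylation levels as a fraction (0 to 1) per annotated region. The coverage minimum, the weighting of CpGs and the annotation release are not given in the sources used here, and no read counts were given, so the depth and precision are unknown.

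Promoter entries listed in all 4 libraries were joined by gene ID to GENCODE vM21. CpGs and CCGG were counted in the 2 kb before each GENCODE start in GRCm38, the build of mm10, and these windows may differ from the authors' windows. The reference sequence is not of the C3H strain. Contrasts were differences of levels, counted from 0.1 in Python 3.11.15 with pandas 2.3.3, after a test on simulated data. The members and gene lists were chosen with earlier results of these data known. Members were named by rank: those past 0.1 the same way in both siDNMT1 contrasts, the 5 largest falls and rises of each, the 5 highest and lowest levels, the 5 widest ranges, types with under 10 members, and the 5 widest and smallest parent gaps. Alternatives were other thresholds, centring, autosomes, CpG and level minimums, windows without islands or other genes, and all symbols. Of the members, 16 formed 8 pairs with equal levels and 55 windows overlapped another member's window. Sequences were shown for at most 3 members in each direction, by rank, and 1 of these is not reported here.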

Additional observations from a re-analysis of the deposited data

Results flagged for a closer look

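The median difference of the members between the OB and the uninduced library was above 0 with NC (0.00216) and below 0 with siDNMT1 (-0.00514). With each library centred on its own median promoter level the medians were 0.0193 and 0.0187, both above 0. Taken per member, the siDNMT1 difference after induction minus that before it had a median of -0.00856, with 983 members lower and 644 higher. With centring this median was -0.00181. This difference was not tested, since each group holds 1 library.

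By at least 0.1, 10 members differed with siDNMT1 in opposite directions before and after induction, 6 of them lower and then higher, and 4 higher and then lower. In the order NC uninduced, siDNMT1 uninduced, NC OB and siDNMT1 OB, Gm5434 had 0.814, 0.5, 0.625 and 0.95, Gm15725, inside Lrrc58, had 0.458, 0.667, 0.786 and 0.5, and Gm21850 had 0.444, 0.294, 0.364 and 0.667. Gm9244 is described above. The others, Gm7047, Gm31274, Trmt112-ps1, Gm4832, Gm5749 and Gm12142, had differences between -0.148 and 0.214. The 10 are 0.614% of the members, against 0.248% of all promoters. By at least 0.1, 6 members were lower and 4 higher in both contrasts. Counted at any size, 938 members differed the same way in both contrasts (724 lower and 214 higher) and 677 in opposite ways. The counts at any size were not made over all promoters. These differences were not tested.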

How the results depend on the processing

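Of 114 alternative values for 18 results, 81 kept their direction and stayed close to the reported value, 32 moved and 1 changed sign. At a threshold of 0.05, 139 members were lower and 95 higher with siDNMT1 in uninduced cells, 217 and 84 after induction, 119 and 119 between the NC libraries, and 178 and 109 between the siDNMT1 libraries. At 0.2 these counts were 6 and 5, 11 and 10, 9 and 8, and 16 and 11. With each library centred on its own median promoter level, the median differences were -0.00182 and -0.00447 with siDNMT1, 0.0193 between the NC libraries, and 0.0187 between the siDNMT1 libraries, where the sign changed from -0.00514. The last contrast then had 46 members lower and 65 higher, against 56 and 42. Centring subtracts the median of all promoters, which itself moved from library to library. Shares over all promoters were not counted with centring or at the other thresholds. With windows free of islands and of other genes' windows (1275 members) the medians were -0.00670 and -0.0168 with siDNMT1 and 0.00391 between the NC libraries. With a mean level of at least 0.1 (1505 members) the OB median was -0.0168 and the median levels were 0.579, 0.570, 0.585 and 0.567 in the order NC uninduced, siDNMT1 uninduced, NC OB and siDNMT1 OB. As means over members the levels were 0.528, 0.521, 0.529 and 0.514. For 2 results only 1 alternative each was tried, and neither moved. The median gap to the parents was 0.561, and 0.557 without ribosomal protein parents. The median of the mean level stood 0.106 higher in members with at least 20 CpGs than in those with fewer. With a 1 kb window, split at 10 CpGs, this distance was 0.105. No paired analysis was possible because each group holds 1 library and the results come from no test. The coverage minimum could not be varied, as no read counts were given.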

Other observations

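On the X chromosome the members and the coding genes stood closer together than on the autosomes. The 110 members on X had a median level of 0.509 in the NC uninduced library and the 394 coding promoters on X one of 0.357, a distance smaller than that of the autosomes, where the medians were 0.556 for 1518 members and 0.101 for 13203 coding promoters. Over the members with an intron entry (111), the intron median was 0.458 in the NC uninduced library and the promoter median of the same genes 0.417.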
